A study of Mus musculus with 8 samples.

Results

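The cells described here are those that the authors' deposited cell table assigns to the class DCT, the distal convoluted tubule, in single-cell RNA sequencing of mouse kidney. They were chosen by that class name alone and number 4707 of the 77393 cells in the table. Of these, 98 and 281 came from UUO samples 1 and 2, and 381, 436, 234, 482, 1943 and 852 from Control samples 1 to 6. UUO stands for unilateral ureteric obstruction. In this model 1 ureter is ligated, here the left, and urine pressure injures the kidney above it. All animals were C57BL/6 mice aged 7 weeks, whole kidney was used, and the obstructed mice were killed on day 7. The protocol text describing ligation is attached to Control samples too, so how the control animals were handled is not clear from the labels. They also do not say whether each sample came from a separate animal.

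The distal convoluted tubule is the short segment that follows the macula densa and takes up sodium chloride through the thiazide-sensitive cotransporter encoded by Slc12a3. Its early part also contains parvalbumin, encoded by Pvalb, and its cells are rich in mitochondria that fuel basolateral sodium pumping. Downstream it passes into the connecting tubule (CNT) and then into the principal cells (CD PC) and intercalated cells (A-IC, B-IC and Trans IC) of the collecting duct, and upstream lies the ascending loop of Henle (ALOH). Gene-level counts were not analysed here, so the name DCT rests on the authors' assignment and could not be set against Slc12a3 or Pvalb. The measures available for each DCT cell were its UMIs (unique transcript molecules), its genes detected, the percentage of its UMIs from mitochondrial genes and its coordinates in the authors' UMAP embedding.

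Samples held 2263 to 18393 cells and 4375942 to 56755823 UMIs in total. Controls 3 and 4 were counted as 1 sample, because the distribution of their cells over the classes was not told apart by a chi-square test (p = 0.0509). For DCT alone the pair did differ, at 10.3% and 12.2% of cells (Fisher's exact test on cells, p = 0.0286, which compares these libraries only). This left n = 2 UUO and n = 5 Control samples, for which the exact permutation test has 21 arrangements and cannot give a p below 0.0476. Across libraries, 10 cell barcodes recurred among DCT cells, and 0 of these had equal UMIs and genes. The spread that enters the p-values is that between these samples and may be technical.

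DCT cells were scarce among the cells of both UUO samples. They made up 0.533% (exact 95% binomial interval 0.433 to 0.649, counting error only) of the cells in UUO 1 and 2.17% (1.93 to 2.44) in UUO 2, against 10.6% in Control 1, 6.78% in Control 2, 11.5% in Controls 3 and 4, 12% in Control 5 and 6.24% in Control 6. The groups did not overlap, and UUO 1 held a smaller share than UUO 2 by more than counting error. Ranked by size among the 28 classes, DCT stood at place 12 in UUO 1 and 9 in UUO 2, and at place 2 in every Control sample as counted. Limma called the share of all cells lower (log2 odds difference -3.20, 95% interval -4.86 to -1.53, adjusted p = 0.00153). In that comparison 50% of the 28 classes were called, 28.6% lower and 21.4% higher. For the DCT share the exact permutation p was 0.0476, the smallest it can give. Without UUO 1 the difference was -2.17 and not called (adjusted p = 0.0954). With all samples, the neighbouring segments CNT (-3.75), CD PC (-3.52) and ALOH (-2.45) were called lower too. With so many classes moving, and with shares that sum to a whole, the share alone does not show how many DCT cells a kidney held.

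DCT cells stayed scarce when cells outside the tubule were taken out of the denominator, and the difference was much smaller when proximal tubule (PT) cells were taken out as well. Among tubular cells DCT made up 0.648% in UUO 1 and 3.10% in UUO 2, against 6.77% to 14.0% in the Control samples. Limma called this share lower (log2 odds difference -2.98, adjusted p = 0.000835), where 70.0% of 10 classes were called, 60.0% lower and 10.0% higher. The exact permutation p was again 0.0476. Among tubular cells other than PT the shares were 18.3% (15.1 to 21.9) in UUO 1 and 28.9% (26.1 to 31.9) in UUO 2, against 34.2% in Control 1, 31.7% in Control 2, 30.6% in Controls 3 and 4, 40.5% in Control 5 and 32.7% in Control 6. Both UUO samples lay below every Control sample as counted, but UUO 2 lay close to them and above Control 3 taken alone at 27.8%. The group means were 23.6% ± 7.51 (SD, n = 2) in UUO and 33.9% ± 3.92 (SD, n = 5) in Control. Of 9 classes limma called 33.3%, with CNT and B-IC lower (22.2%) and 11.1% higher. It did not call the DCT difference (-0.76, interval -1.54 to 0.02, adjusted p = 0.124), while the exact permutation p was 0.0476, the smallest possible. Without UUO 2 limma did call it (-1.19, adjusted p = 0.0386). The call among all tubular cells was lost without UUO 1 (-1.83, adjusted p = 0.0696) and with edgeR's TMM scaling (-0.50, adjusted p = 0.149).

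**Figure D1:**
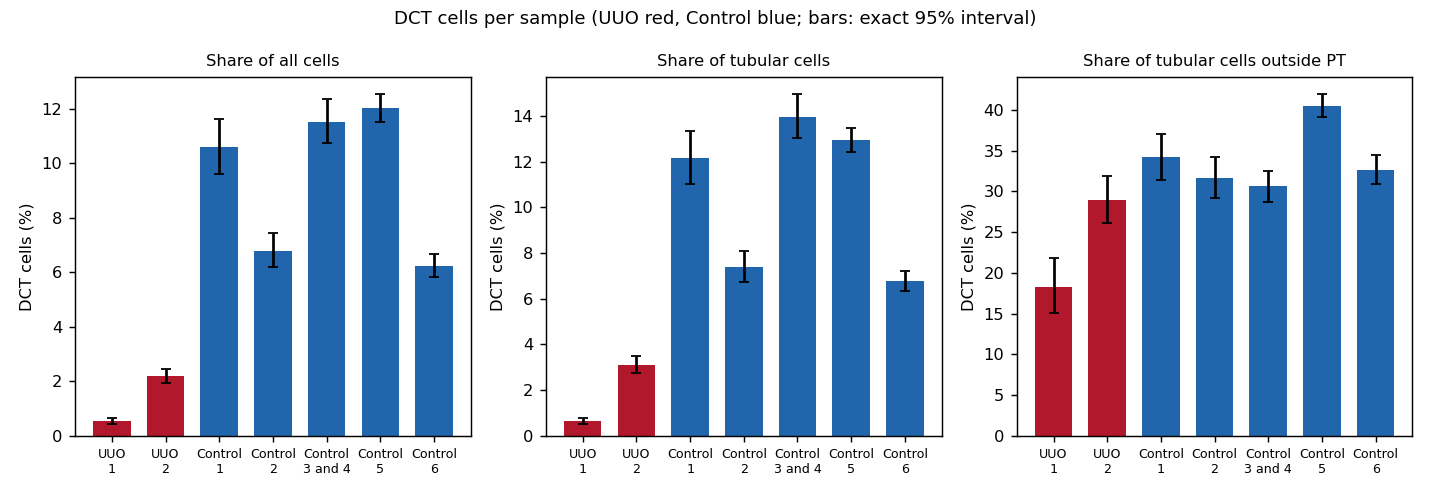
Bars give DCT cells as a percentage of all cells, of tubular cells and of tubular cells outside PT in each sample, with exact 95% binomial intervals. UUO samples (0.533% and 2.17% of all cells) stand far below the Control samples in the left panel and much closer to them in the right panel (18.3% and 28.9% against 30.6% to 40.5%).

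Numbers of DCT cells were then set against each other class in turn, since a ratio of a pair of classes does not depend on a denominator. For each CNT cell, the next segment downstream, there were 4.08 and 2.75 DCT cells in UUO 1 and 2, against 2.31, 1.74, 1.97, 2.89 and 2.07 in Controls 1, 2, 3 and 4 together, 5 and 6. UUO 2 lay between Control 5 and the other Control samples, so the groups overlapped. The log2 difference was 0.62 (interval -0.71 to 1.95, limma adjusted p = 0.380), an interval that includes both fewer and more DCT cells per CNT cell. For each CD PC cell there were 5.44 and 4.26 DCT cells in UUO 1 and 2, against 2.35 to 6.95 in Control (difference 0.41, -1.0 to 1.82, adjusted p = 0.586). For each ALOH cell, upstream, there were 1.20 and 1.22 in UUO 1 and 2, against 1.21 to 3.93 in Control, where UUO 2 and the pooled Controls 3 and 4 nearly coincided (-0.68, -2.12 to 0.75, adjusted p = 0.380).

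Set against PT cells, the bulk-reabsorbing segment upstream, the values stood far apart. UUO 1 held 0.00672 and UUO 2 held 0.0348 DCT cells for each PT cell, against 0.0853 to 0.257 in Control. The groups did not overlap, and the log2 difference was -3.29 (interval -4.90 to -1.68, adjusted p = 0.000900). Without UUO 1 it was -2.11 and not called (adjusted p = 0.0653). Over all 27 other classes limma called the DCT ratio lower for 19 and higher for 0, so 70.4% of the ratios were called, all lower. These 19 were PT, Prolif PT, Profibrotic Tubules, podocytes and all 15 immune classes. No minimum number of cells was set for the ratios, and some rest on few cells. Basophils numbered 1 to 9 in the Control samples as counted. Podocytes numbered 7 in UUO 1 and 6 in Control 2, and Th17 cells 8 in Control 1. The lowest difference was against Th17 cells, interleukin-17-producing T helper cells, with 0.277 and 0.792 DCT cells for each Th17 cell in UUO 1 and 2, against 14.3 to 47.6 in Control (-6.14, -7.65 to -4.63). In 18 of the 19 the groups did not overlap, the exception being Prolif PT, where Control 5 at 3.67 lay between UUO 1 at 0.867 and UUO 2 at 6.69. Over all 27 ratios the groups did not overlap in 19, so this was not confined to the called ratios. GEC, not called, had 2.13 and 2.60 in UUO 1 and 2, against 2.725 to 8.95 in the Control samples as counted. The 8 ratios not called were those to the intercalated classes, CNT, CD PC, ALOH and the endothelial classes Endo and GEC, with differences between -1.28 for A-IC and 0.62 for CNT.

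The 27 ratios share the DCT count and are therefore not independent of each other. The exact permutation p was 0.0476 for 17 ratios and passed for 0 after Benjamini-Hochberg adjustment (lowest 0.0756). Leaving out 1 sample at a time gave 15 to 20 ratios called lower and 0 higher, and the libraries of over 10000 cells alone (both UUO samples, Controls 5 and 6) gave 18. Without UUO 1 the calls for podocytes (-1.69), macrophages (-2.05) and Prolif PT (-1.06) were lost as well as that for PT. The podocyte call was also lost without UUO 2 (-1.98) and without Control 2 (-1.74). A-IC was called without Controls 3 and 4 (-1.55), and Endo among the libraries of over 10000 cells (-2.21), where podocytes (-1.21, limma adjusted p = 0.211) and Prolif PT (-1.50, adjusted p = 0.136) were not.

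**Figure D2:**
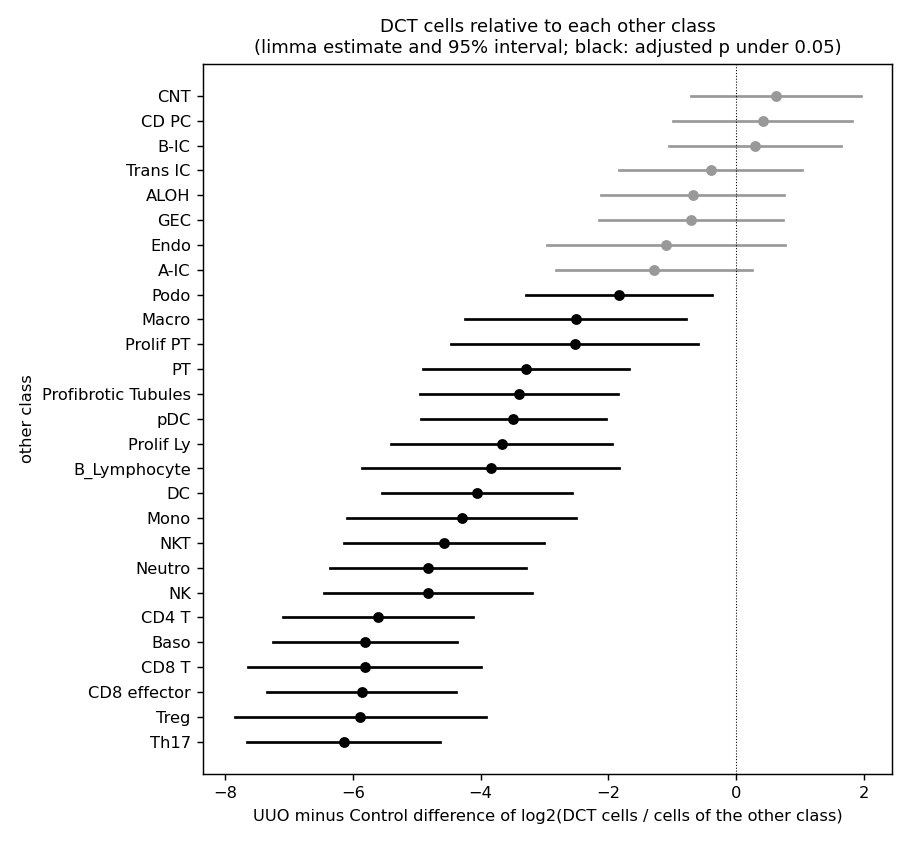
Points give the UUO minus Control difference of the log2 ratio of DCT cells to cells of each other class, with limma's 95% interval, in black where the adjusted p is under 0.05. The 8 ratios between A-IC and CNT have intervals that include 0, and the other 19 lie below it, down to -6.14 for Th17.

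The RNA content of the DCT cells themselves was compared next. Median UMIs per DCT cell were 1519 in UUO 1 and 2988 in UUO 2, against 1288, 1308, 1036, 3440 and 1652 in Controls 1, 2, 3 and 4 together, 5 and 6. Control 5 stood above all other samples, and both UUO medians fell within the Control range. The UUO to Control ratio was 1.35 (interval 0.70 to 2.59, limma adjusted p = 0.535), where 10.5% of 19 classes were called higher. Genes detected had medians of 730 and 1185 in UUO 1 and 2, against 537 to 1222 in Control, a ratio of 1.28 (0.80 to 2.04, adjusted p = 0.366; 5.26% of 19 classes called). UMIs and genes mix library depth with the transcripts of a cell. Taken relative to the other tubular cells of the same sample, DCT UMIs had a ratio of 0.87 (0.54 to 1.41, adjusted p = 0.811), so the sign turned, and so it did among the libraries of over 10000 cells (log2 difference -0.16). The make-up of those other tubular cells differed between the groups. PT cells were 14584 of 15119 tubular cells in UUO 1 and 8082 of 9053 in UUO 2. In Control they ranged from 2784 of 5122 (Controls 3 and 4) to 9984 of 12593 (Control 6). UMIs were called higher when cells under 1000 UMIs were left out (0.65, adjusted p = 0.0319) and genes when cells at or above 20% mitochondrial UMIs were left out (0.54, adjusted p = 0.0268).

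UMIs also varied widely among the DCT cells of a sample. In UUO 1 the interquartile range ran from 977 to 4249 UMIs and the 95th percentile was 8108, and in UUO 2 these were 1354, 5300 and 9008. Among Control samples only Control 5 had a comparable upper end, with an interquartile range from 1824 to 5848 and a 95th percentile of 7695, and in the others the 95th percentile lay between 2609 and 3704. DCT cells with 6000 or more UMIs made up 14.3% of those in UUO 1 (14 cells) and 20.3% in UUO 2 (57 cells), against 23.3% in Control 5 (452 cells) and 0 in Controls 1 to 4 and 6. Cells with over 2500 genes made up 8.16% and 8.54% of DCT cells in UUO 1 and 2, against 0.875% in Control 5 and 0 in the others. No cell in the table has more than 2998 genes, so the top of the UUO range may be cut off.

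Genes were also compared within windows of UMIs, which narrow the range of depth but do not equalise it. In DCT cells with 1000 to 2000 UMIs the median was 640 genes in UUO 1 (29 cells) and 662 in UUO 2 (54 cells), against 710, 718, 656, 661 and 660 in Controls 1, 2, 3 and 4 together, 5 and 6. UUO 2 lay within the Control range and UUO 1 just under it (log2 difference -0.06, exact permutation p = 0.238). In cells of 500 to 1000 UMIs the medians were 490 genes in UUO 1 (27 cells) and 417 in UUO 2 (46 cells), against 391 to 419 in Control. There UUO 1 lay above all Control samples and UUO 2 within them (0.16, exact permutation p = 0.0952). In cells of 2000 to 4000 UMIs the medians were 1196 genes in UUO 1 and 1158 in UUO 2, against 1072 to 1192 in Control (0.08, exact permutation p = 0.190).

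**Figure D3:**
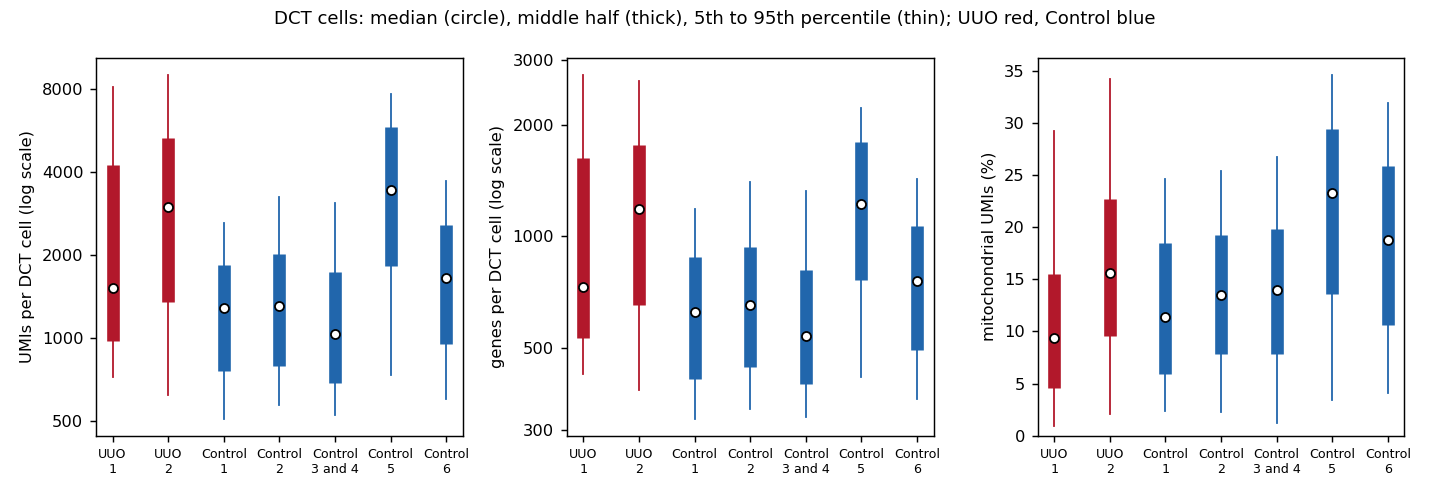
Circles give the median over DCT cells of each sample, thick bars the interquartile range and thin bars the 5th to 95th percentile, for UMIs and genes per cell (log axes) and the mitochondrial percentage. The UUO medians lie within the Control range for UMIs and genes, and Control 5 stands highest among the Control samples in all 3 panels.

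Mitochondrial transcripts made up a large part of DCT RNA in every sample. The median mitochondrial percentage of DCT cells was 9.42% in UUO 1 and 15.6% in UUO 2, against 11.4% in Control 1, 13.5% in Control 2, 14.0% in Controls 3 and 4, 23.3% in Control 5 and 18.8% in Control 6. UUO 1 was the lowest of all and UUO 2 lay within the Control range. The difference was -3.68 percentage points (interval -12.2 to 4.88, limma adjusted p = 0.887), and limma called 0 of 19 classes (0%, and 0 at an unadjusted p under 0.05). The size of the difference rested on single samples, at -0.60 points without UUO 1, -6.77 without UUO 2 and -1.91 without Control 5. Among the libraries of over 10000 cells it was -8.52 points and still not called (adjusted p = 0.142). In PT cells the medians were 15.9% and 16.0% in UUO 1 and 2, against 9.29% to 17.3% in Control. Relative to the other tubular cells of the same sample the DCT difference was -6.84 points (-14.2 to 0.52, limma adjusted p = 0.202), which was not called either. Those other cells were mostly PT, to a larger part in UUO than in Control, so the reference was not alike in the groups.

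Compared with the neighbouring segments, DCT cells held a lower mitochondrial percentage than CNT cells in every sample, at 9.42% against 10.1% in UUO 1, 15.6% against 20.7% in UUO 2, and on average 4.23 points lower in Control. Among the classes with at least 20 cells, DCT ranked 6 of 22 for this percentage in UUO 1 and 7 of 27 in UUO 2. In Control it ranked between 3 and 8, over 14 to 25 classes. Among the tubular classes alone DCT ranked 6 of 7 in UUO 1 and 7 of 10 in UUO 2. There it ranked between 3 and 7, over 9 or 10 classes, in the Control samples as counted. These levels describe classes that were defined on the same cells and were not tested. Whether the UUO against Control difference in DCT cells departed from that in CNT, ALOH or CD PC cells was tested for UMIs, genes and mitochondrial percentage, 9 differences in all. None passed (exact permutation test, lowest p = 0.143, lowest adjusted p = 0.571, and 0 under an unadjusted 0.05). The CD PC medians of UUO 1 in these differences rest on 18 cells, under the minimum of 20 used elsewhere. For UMIs, DCT minus CNT was -0.47 ± 0.708 on the log2 scale in UUO and -0.0046 ± 0.225 in Control (SD, n = 2 and 5), and UUO 1 alone carried it: DCT cells there held 1519 UMIs against 2984 in only 24 CNT cells, and without UUO 1 the difference was 0.03.

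In the embedding, DCT cells lay mostly among each other, next to the CNT cells. Of the 20 nearest neighbours of a DCT cell, 94.8% in UUO 1 and 92.1% in UUO 2 were DCT cells, against 94.3% to 96.9% in Control (means 93.5% ± 1.97 and 95.8% ± 1.03, SD, n = 2 and 5, exact permutation p = 0.0952). UUO 1 lay within the Control range and UUO 2 below it. CNT cells were the main other neighbours, at 2.70% in UUO 1 and 6.05% in UUO 2, against 2.43% to 4.53% in Control. Cells whose neighbours were mostly of other classes numbered 2 in UUO 1 and 14 in UUO 2, or 2.04% and 4.98% of DCT cells, against 1.29% to 3.21% in Control. These cells held more UMIs than other DCT cells in both UUO samples, at 4929 (2 cells) against 1519 in UUO 1 and 3946 against 2932 in UUO 2. They held fewer in every Control sample, for example 1992 against 3493 in Control 5. The group means of the sample median positions lay 0.229 units apart, against a median of 0.175 between pairs of Control samples (exact permutation p = 0.143). The embedding and the class were made from the same cells, so nothing about DCT against other classes follows from it.

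The mitochondrial percentage was not even over this field. Along the line from the centre of the DCT cells to the centre of the CNT cells, cut into 5 groups of equal size over all DCT cells, the median was lower in the group nearest CNT than in the group farthest from it in every sample, though not at each step between them. In the group farthest from CNT it was 26.3% in UUO 1 and 28.1% in UUO 2, against 21.4% to 31.2% in Control, and in the group nearest CNT it was 5.06% in UUO 1 and 11.8% in UUO 2, against 6.62% to 14.9% in Control. Spearman's rho between position and mitochondrial percentage was -0.57 and -0.61 in the 98 and 281 cells of UUO 1 and 2, and between -0.53 and -0.63 in Control. The groups of UUO 1 are thin, at 14, 7, 27, 31 and 19 cells. This line was chosen after the positions were seen, its cells share libraries and depth, and no test was made.

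Spearman's rho between position on this line and UMIs was 0.04 in UUO 1 and 0.30 in UUO 2, against -0.23 to 0.14 in Control, so UUO 1 lay within the Control range and UUO 2 above it. In the group nearest CNT the median was 4024 UMIs in UUO 1 (19 cells) and 5860 in UUO 2 (88 cells), against 1536, 1048, 976.5, 2663 and 1216 in Controls 1, 2, 3 and 4 together, 5 and 6. This group held the highest median of the 5 in both UUO samples and in Control 1, and the lowest in the other 4 Control samples as counted. At the upper edge of the field, above 5 on the UMAP 2 axis, lay 13.3% of DCT cells in UUO 1 (13 cells) and 21% in UUO 2 (59 cells), against 11.4% in Control 5 (221 cells) and 1.61% to 3.64% in the other Control samples (7 to 31 cells each, some of them lying among other segments). These cells held 7969 and 7427 UMIs in UUO 1 and 2, against 1369 and 2378 below the edge, and 7235 against 3016 in Control 5. Their mitochondrial percentage was 9.45% against 9.40% below the edge in UUO 1, and 11.8% against 16.9% in UUO 2, while in each Control sample it was higher above the edge than below it, at 29.3% against 22.0% in Control 5.

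**Figure D4:**
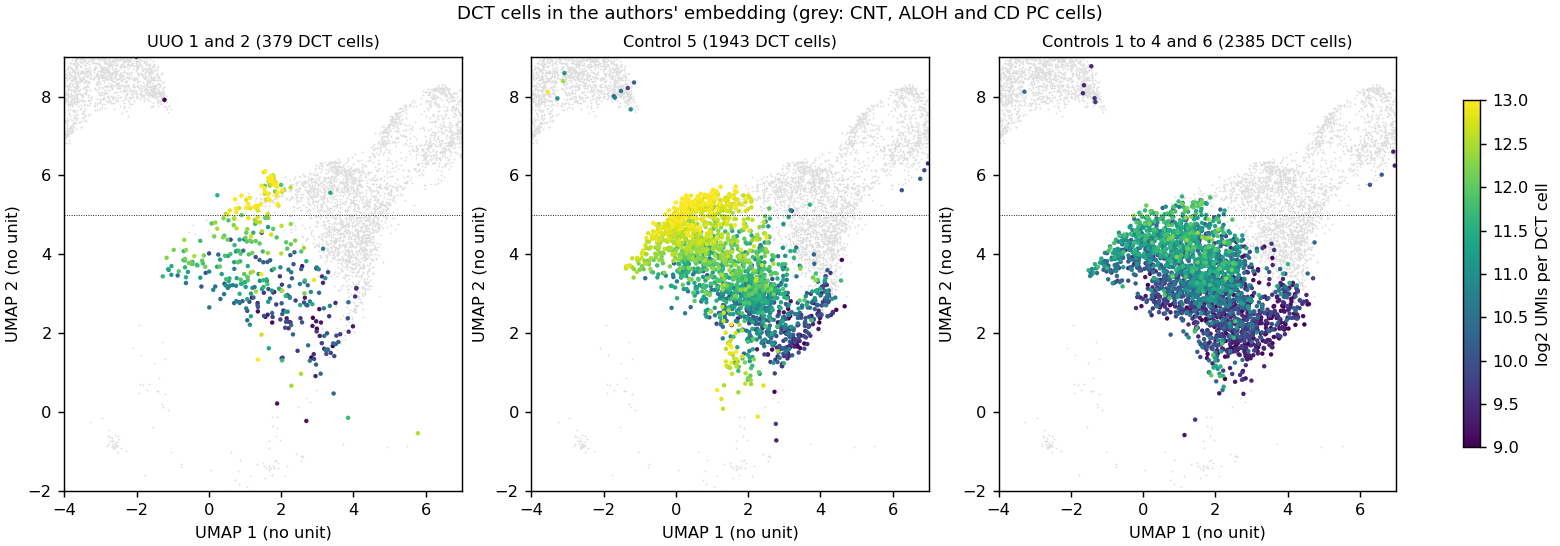
Each coloured point is a DCT cell at its coordinates in the authors' embedding, coloured by log2 UMIs, for the UUO samples, Control 5 and the other Control samples, with CNT, ALOH and CD PC cells in grey and a dotted line at 5 on the UMAP 2 axis. DCT cells of high UMI count sit at the upper edge in the UUO samples (7969 and 7427 UMIs above the line) and spread over the upper left in Control 5.

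Cells of high UMI count also differed in their mitochondrial percentage. DCT cells with 6000 or more UMIs had a median of 7.17% in UUO 1 (14 cells) and 11.6% in UUO 2 (57 cells), against 29.2% in Control 5 (452 cells), with interquartile ranges of 4.72% to 11.5%, 8.57% to 16.9% and 25.7% to 32.5% that did not overlap between UUO and Control 5. They held a median of 2585 and 2459 genes in UUO 1 and 2, against 2045 in Control 5. The other Control samples had no such cell, so the comparison rests on 1 Control library and has no replicate check on that side. Over cells, Spearman's rho between UMIs and mitochondrial percentage was 0.29 and 0.02 in UUO 1 and 2, against -0.09, -0.14, 0.02, 0.61 and 0.44 in Controls 1, 2, 3 and 4 together, 5 and 6. No step was taken here against doublets, droplets that catch more than 1 cell, and whether the submitters took one is not given. The part of doublets in the cells of high UMI count was not tested. The limits of 6000 UMIs and of 5 on the axis were chosen after the values were seen.

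**Figure D5:**
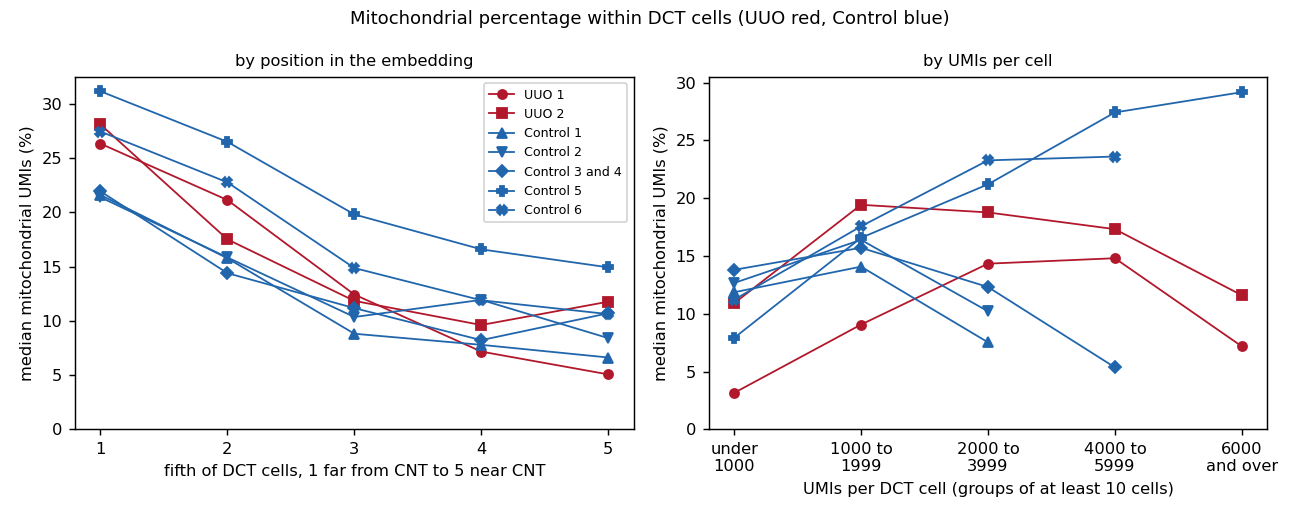
Lines join the median mitochondrial percentage of DCT cells in each sample, by position from far from CNT to near it (left) and by UMIs per cell (right, groups of at least 10 cells). On the left all 7 samples are lower at the end near CNT than at the far end, and on the right UUO 1 and 2 end at 7.17% and 11.6% where Control 5 ends at 29.2%.

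Cell numbers and cell content together set how much of each library came from DCT cells. They supplied 0.519% of all UMIs in UUO 1 and 2.51% in UUO 2, against 5.03% to 13.3% in Control. Of the mitochondrial UMIs of a sample they supplied 0.430% in UUO 1 and 2.93% in UUO 2, against 5.69% to 17.9% in Control. The UUO values lay below every Control value for both quantities. Fewer DCT cells recovered from a kidney, fewer present in it and more cells of other classes beside them cannot be told apart from these values.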

How the data were processed

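The submitters' processing notes name Cell Ranger 6.0.1, Seurat 4.0.1 and the build mm10. How cells were filtered, classed and embedded is not given in these sources. Per the file headers, the deposited UMIs and genes per cell are whole counts, not normalized, and the mitochondrial percent is each cell's own. Multiplied by the UMIs it gave whole numbers in 100% of cells (tolerance 0.001). The deposited UMAP coordinates are a score without unit, given for 25200 cells outside PT. All columns were used (0 left out), and no gene-level values were analysed here.

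Sample values were tested, not cells. Log2 odds and log2 ratios (offset 0.5 cell) and sample medians (log2, or percentage points, for 19 classes with 20 or more cells in 2 or more samples per group) went into limma 3.58.1 (R 4.3.3, two-sided), with Benjamini-Hochberg adjustment over the classes or ratios and a threshold of 0.05. For the shares of all and of tubular cells limma gave every class the same standard error, so those intervals may be too narrow. The same held for mitochondrial UMIs and for UMIs relative to other tubular cells, among the classes with values in all samples. Other results were tested by exact permutation of the samples (two-sided), using group means. Alternatives were 8 separate samples, each sample left out, libraries over 10000 cells, at least 1000 UMIs, under 20% mitochondrial UMIs, the sample number as a block, edgeR 4.0.16 on cell numbers, other scales, means, UMI windows and neighbour numbers. In data simulated for the share of all cells (28 classes, 200 data sets) limma called 93% of log2 odds differences of -3, 37% of -2 and 0% of 0. There the classes varied independently with the Control spread in both groups, and only DCT was shifted. In the real data many classes moved and shares sum to a whole, so these rates need not hold for them. The text names DCT, CNT, ALOH, CD PC, PT and the lowest and highest ratios; other classes were picked by their values. The class, its comparison classes and the alternatives were chosen with earlier results of these data known.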

Additional observations from a re-analysis of the deposited data

Results flagged for a closer look

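In 46 sets of Control values (n = 5 as counted), 5 had a sample whose gap to its nearest neighbour was large for the range (Dixon's test, critical value 0.71), where chance gives about 1 in 20. Control 5 stood apart in 4 of them. Its DCT cells held a median of 3440 UMIs, against 1652 in the next sample. The median of mitochondrial UMIs there was 731 (next 279) and that of all other UMIs 2706 (next 1368). These 3 measures are not independent, since the UMIs of a cell are the sum of the other measures. Its log2 ratio of DCT to GEC cells was 3.16 (next 1.91). The pooled Controls 3 and 4 had a log2 ratio of DCT to Th17 cells of 3.83, below the 5.18 of the next sample. Without Control 5 the log2 UUO minus Control difference of UMIs per DCT cell was 0.71 (limma adjusted p = 0.0702).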

How the results depend on the processing

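Log2 or log2 odds differences are given as UUO minus Control. Leaving out 1 sample at a time gave -4.22 to -2.17 for the DCT share of all cells, -4.12 to -1.83 for tubular cells and -1.19 to -0.33 for tubular cells outside PT, 15 to 20 ratios called lower, -0.059 to 0.92 for UMIs, 0.0049 to 0.70 for genes, -0.0096 to 1.18 for mitochondrial UMIs, -6.77 to -0.60 points for the mitochondrial percentage and -3.59 to -1.94 points for the DCT share of neighbours. The first 2 were not called without UUO 1.

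Among all tubular cells the fall was not called with TMM scaling (-0.50). Among libraries over 10000 cells the sign turned for UMIs (-0.16), genes (-0.051), mitochondrial UMIs (-0.42) and UMIs outside mitochondrial genes (-0.097). Relative to other tubular cells, a reference whose PT part differed between the groups, it turned for the same 4 (-0.20, -0.10, -0.36 and -0.17). UMIs were called with at least 1000 UMIs (0.65) and genes under 20% mitochondrial UMIs (0.54), where 1 of the 9 within-sample differences reached an unadjusted exact p under 0.05 (mitochondrial percentage, DCT minus CNT, 3.61 points) and the neighbour share turned sign (0.19 points). Genes within UMI windows turned sign at 500 to 1000 (0.16) and 2000 to 4000 UMIs (0.076). The cause was not tested in any of these.

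The sample numbers do not show that samples were paired. With the number as a replicate block, only numbers found in both groups inform the difference. It then compares UUO 1 with Control 1 and UUO 2 with Control 2. The other Control samples, Control 5 with its high UMIs among them, do not enter it. On that reduced comparison UMIs (0.72) and UMIs outside mitochondrial genes (0.75) were called, and the share of tubular cells was not (-2.86). The mitochondrial percentage turned sign there (0.059 points), and genes at 1000 to 2000 UMIs were -0.13. These calls are therefore not a repeat of the test on all samples. Same-numbered samples correlated at -0.33 and 0.055 over 28 classes, as deviations from their group means. With only 2 UUO samples these deviations mirror each other, so unlike numbers gave 0.33 and -0.055. The correlations therefore cannot decide whether samples were paired.

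Single ratios that turned sign were B-IC without UUO 2 (-0.081, against up to 0.67 without another sample) and Endo with at least 1000 UMIs (0.12) or the block (0.22). Within-sample differences that turned sign were DCT minus CNT without UUO 1 (UMIs 0.031, genes 0.087, mitochondrial -0.84 points, against -0.97, -1.03 and 3.56 without UUO 2), DCT minus CD PC without UUO 1 (UMIs -0.079, against 0.33 without UUO 2), without Controls 3 and 4 (-0.015), in the libraries over 10000 cells (UMIs -0.33, genes -0.16, mitochondrial 1.28 points) and under 20% mitochondrial UMIs (UMIs -0.21), and DCT minus ALOH mitochondrial points without UUO 1 (2.11, against -3.76 without UUO 2), under 20% (0.51), by means (0.85) and with the block (1.04). With fewer than 21 arrangements the within-sample count is 0 by construction, since no p under 0.05 is possible, and says nothing about stability. With 98 DCT cells in UUO 1, finer groups there hold as few as 7 cells.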
